A study of Mus musculus with 2 samples.

Results

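Apoe, Abca1, Abcg1, Lpl, Fabp4, Fabp5, Pparg and Npc2 move cholesterol, triglyceride and fatty acids into, within and out of myeloid cells. These 8 of the 32285 genes in the count tables were described in splenic dendritic cells (DC) from WT mice and from H2-Aa cit/cit mice. They were chosen by symbol and from their own values: their UMIs (unique molecular identifiers, which count captured transcript molecules) in both libraries across cell classes, with and without 2 small sets of cells. Negr1-rich cells, with 5 or more UMIs of the adhesion gene Negr1, formed the first set, and C1q cells, with 3 or more UMIs of the complement genes C1qa, C1qb and C1qc together, formed the other. The differences between libraries given here were therefore part of the choice, and they are described without a test.

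The WT mice were H2-Aa +/+. The H2-Aa cit/cit mice were homozygous for citation, an allele found after ENU mutagenesis that leaves the mice deficient in H2-Aa, the alpha chain of MHC class II. The allele is in the germline, so all cells of those mice carried it. Each genotype gave 1 library, pooled from 3 female naive mice of 4 months, after CD11c enrichment of the spleen and a sort for live CD45.2+ CD11c+ cells. The cells cannot be traced to a mouse. With 1 library per genotype no difference between genotypes can be tested, and the 95% intervals in parentheses cover counting error only.

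Cholesterol leaves a macrophage or DC through the transporters ABCA1 and ABCG1, and apolipoprotein E is an acceptor that such cells secrete. Transcription of these genes is switched on by LXR, a nuclear receptor that senses oxysterols. Lipoprotein lipase (Lpl) frees fatty acids from triglyceride-rich particles, FABP4 and FABP5 bind fatty acids in the cytoplasm, and PPAR-gamma (Pparg) is a nuclear receptor for lipids that drives Fabp4. NPC2 passes cholesterol within the lysosome to the membrane protein NPC1. DC that mature, either in the steady state or after a stimulus, gain CCR7 and migrate to T cell zones.

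In GRCm38, Apoe (ENSMUSG00000002985) lies on chromosome 7 from 19696109 to 19699188 on the minus strand, with 4 exons. Abcg1 spans chromosome 17 from 31057675 to 31117988 on the plus strand with 15 exons, and Abca1 spans chromosome 4 from 53030787 to 53159895 on the minus strand with 50 exons. Lpl is on chromosome 8 from 68880491 to 68907448 on the plus strand, and Pparg on chromosome 6 from 115360951 to 115490399 on the plus strand. Fabp5 and Fabp4 share chromosome 3, where Fabp5 runs from 10012548 to 10016607 on the plus strand and Fabp4 from 10204088 to 10208576 on the minus strand. Npc2 is on chromosome 12 from 84754562 to 84773152 on the minus strand. Each symbol had 1 row in the count tables. Fabp5 had 5 processed pseudogenes among the GENCODE transcripts that matched it at 90% identity or more over at least 200 bases, and none of them had a row in the tables. The libraries count the 3′ ends of transcripts, so isoforms of Pparg were not told apart.

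RefSeq promoter windows, from 250 bases before to 50 after a start site, were at hand for 4 members. Those of Apoe and Npc2 are shown, since the level of Apoe was far higher in 1 class than in the others, whereas Npc2 was found in every class at more even levels. The first, chr7:19699139-19699438 of GRCm38.p6 on the minus strand, belongs to the Apoe start that the gene annotation places first. The other is chr12:84773063-84773362 on the minus strand. Capitals mark matches to CCAAT and GGGCGG on either strand, and no match overlaps another.
Apoe promoter: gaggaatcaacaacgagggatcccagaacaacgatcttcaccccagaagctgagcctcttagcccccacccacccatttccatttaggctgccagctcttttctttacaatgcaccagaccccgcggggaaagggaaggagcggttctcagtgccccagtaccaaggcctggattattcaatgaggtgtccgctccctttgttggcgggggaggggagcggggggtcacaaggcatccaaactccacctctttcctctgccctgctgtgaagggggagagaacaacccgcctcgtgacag
Npc2 promoter: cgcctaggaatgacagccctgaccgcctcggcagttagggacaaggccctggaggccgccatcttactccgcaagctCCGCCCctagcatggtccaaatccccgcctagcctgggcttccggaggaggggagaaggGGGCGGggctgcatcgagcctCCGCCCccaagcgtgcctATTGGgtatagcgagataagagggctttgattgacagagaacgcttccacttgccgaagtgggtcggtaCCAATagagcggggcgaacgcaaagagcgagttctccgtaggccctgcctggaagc
The Npc2 window held 2 matches to CCAAT and 3 to GGGCGG, whereas the Apoe window shown held no match to either. Nor did this Apoe window match the TATA box letters TATAAA, the E-box CACGTG, the LXR element form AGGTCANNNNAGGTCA or the PPAR element form AGGTCANAGGTCA, searched on both strands. Apoe had 3 windows, and TATAAA was found among those not shown. Of 32851 promoter windows of this length, 37.4% held CCAAT, 35.7% GGGCGG, 13.6% TATAAA and 7.15% CACGTG. The LXR and PPAR forms were in 0.0152% and 0.0396% of windows, and in none of the 8 windows of the members. These matches describe the letters of the windows only.

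There were 7814 WT cells with 51020804 UMIs against 11525 H2-Aa cit/cit cells with 72652201 UMIs. The median cell had 5492 UMIs in WT against 5633 in H2-Aa cit/cit. H2-Aa itself was at 5410 CPM (UMIs per 1000000 UMIs of the same cells) in WT against 66.2 CPM in H2-Aa cit/cit. The DC genes Itgax and Flt3 were found in both, at 199 and 422 CPM in WT against 224 and 333 CPM in H2-Aa cit/cit. The libraries shared 31 cell barcodes. Cells were put into 9 classes by UMIs of marker genes, none of them a member. These were cDC2 (2574 WT and 5485 H2-Aa cit/cit cells), cDC1 (444 and 567), proliferating DC (335 and 630), mature DC (1963 and 1403), mature DC with cDC1 genes (117 and 30), pDC-like (128 and 103), monocyte-like (88 and 114), NK-like (33 and 29) and neutrophil lineage cells (11 and 15). Ungated cells, 2044 and 3044, were shallow, with medians of 2213 and 2092 UMIs. Mixed cells, 77 and 105, passed more than 1 gate or had UMIs of both cDC lists with neither dominant.

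Apoe, whose product carries lipid in lipoproteins, had 6897 UMIs in WT (135 CPM, 132 to 138) against 6399 in H2-Aa cit/cit (88.1 CPM, 85.9 to 90.3). The log2 ratio of H2-Aa cit/cit to WT was −0.62 (−0.67 to −0.57), or 1.53-fold lower. Leaving out Negr1-rich and C1q cells brought the levels to 115 and 81.7 CPM and the ratio to −0.49 (−0.55 to −0.44), so Apoe was lower in H2-Aa cit/cit either way. The monocyte-like class stood far above the others in both libraries. The next gated classes of WT, pDC-like, cDC2, neutrophil lineage, cDC1 and mature DC with cDC1 genes, lay between 105 and 114 CPM without those cells, and the intervals of neighbors in this order overlapped. The neutrophil lineage level came from only 6 UMIs in 11 cells, with an interval of 40.2 to 238 CPM. In H2-Aa cit/cit, cDC2 came next at 92.8 CPM, above pDC-like cells at 67.4 CPM, while cDC1 had come down the order to 38.4 CPM.

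**Figure D1:**
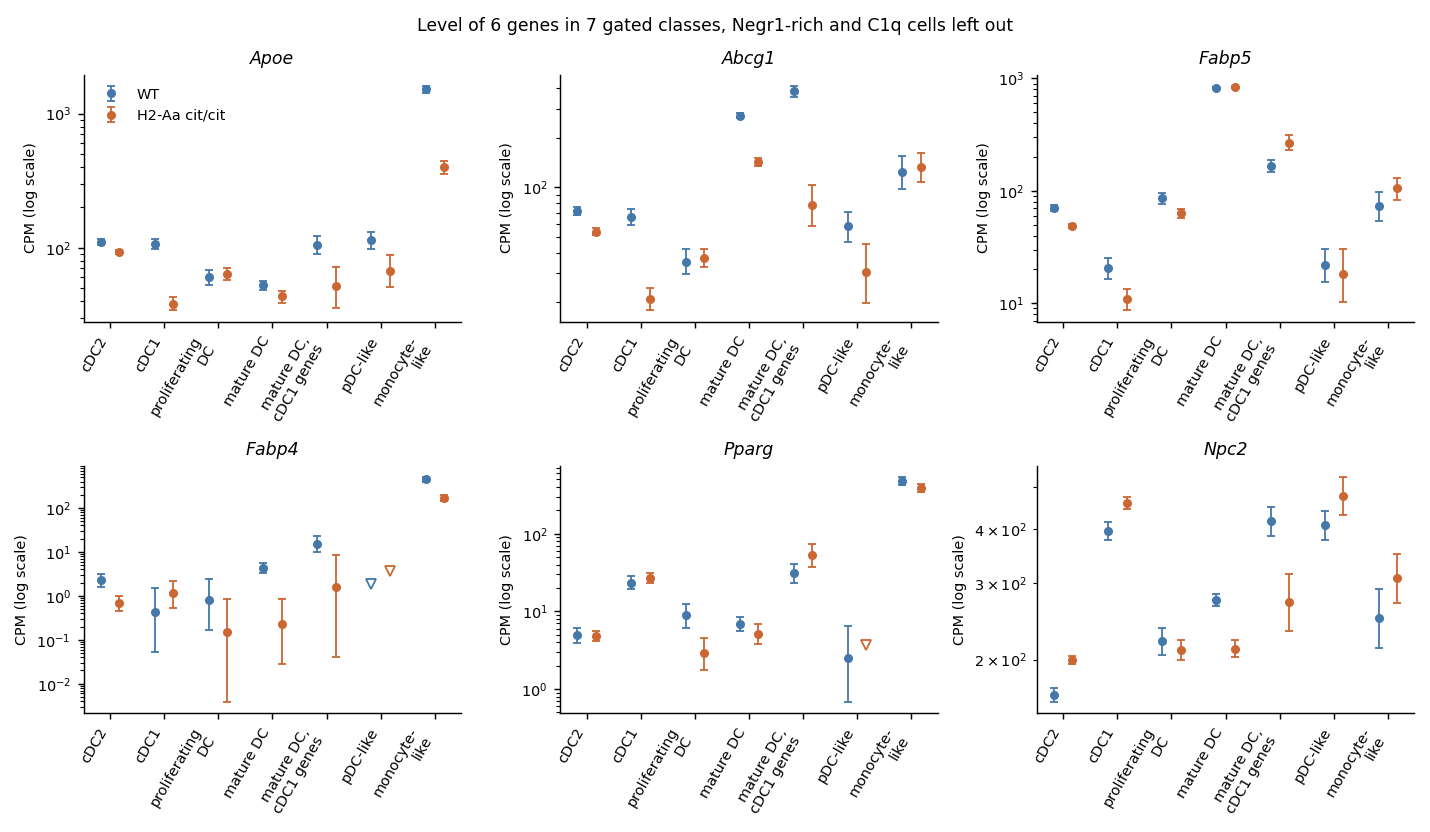
Level in CPM (log axis) of 6 genes in 7 gated classes of the WT (blue) and H2-Aa cit/cit (orange) libraries, without Negr1-rich and C1q cells. Bars are exact Poisson 95% intervals, and open triangles mark the level that 3 UMIs would give where a class held 0. Apoe, Fabp4 and Pparg peak in monocyte-like cells, Fabp5 in mature DC and Abcg1 in both mature classes of WT.

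In monocyte-like cells Apoe had 1047 UMIs in WT (1560.1 CPM, 1467 to 1658) and 302 in H2-Aa cit/cit (366 CPM, 326 to 409.9), a log2 ratio of −2.09 (−2.28 to −1.90). Assigning each cell to its highest marker z-score instead gave a far wider monocyte-like class (904 cells in WT against 1628 in H2-Aa cit/cit), in which the Apoe ratio was −1.27. These 88 WT cells held 15.2% of all Apoe UMIs of their library, and the 114 H2-Aa cit/cit cells held 4.72%. The median cell had 6 UMIs in WT against 0 in H2-Aa cit/cit, and 60 WT and 50 H2-Aa cit/cit cells had at least 1. The upper end differed as well: 10 UMIs or more were found in 36 cells of WT but in 11 of H2-Aa cit/cit, and the highest cells had 138 and 19. Thinned to 1500 UMIs per cell, 58.8% (47.6 to 69.4) of WT against 30.2% (21.6 to 39.9) of H2-Aa cit/cit monocyte-like cells had an Apoe UMI without Negr1-rich and C1q cells, against 67.1% and 46.7% unthinned. NK-like cells, in which Apoe was taken as background, gave 3.23% (1 of 31 cells, 0.0816 to 16.7) and 3.70% (1 of 27 cells, 0.0937 to 18.97) after thinning, at median depths of 4575 and 4466 UMIs, beside 6906.5 and 5769 in all monocyte-like cells. The 5 monocyte markers that set the gate (Ace, Treml4, Adgre4, Eno3 and Spn) summed to 2934 and 2413 CPM in this class, with none at 0. The 7 cDC2 markers were all detected there too, at 812 and 732 CPM, beside 1160 and 1115 CPM in cDC2. The 6 cDC1 markers summed to 268 and 238 CPM in monocyte-like cells. The 12 macrophage markers summed to 104 and 119 CPM, with 8 and 9 detected and Cd5l, Marco and Slc40a1 at 0 in both. The 5 proliferation markers stood at 40.2 CPM in WT against 233 CPM in H2-Aa cit/cit, and their part in the Apoe difference was not tested.

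**Figure D2:**
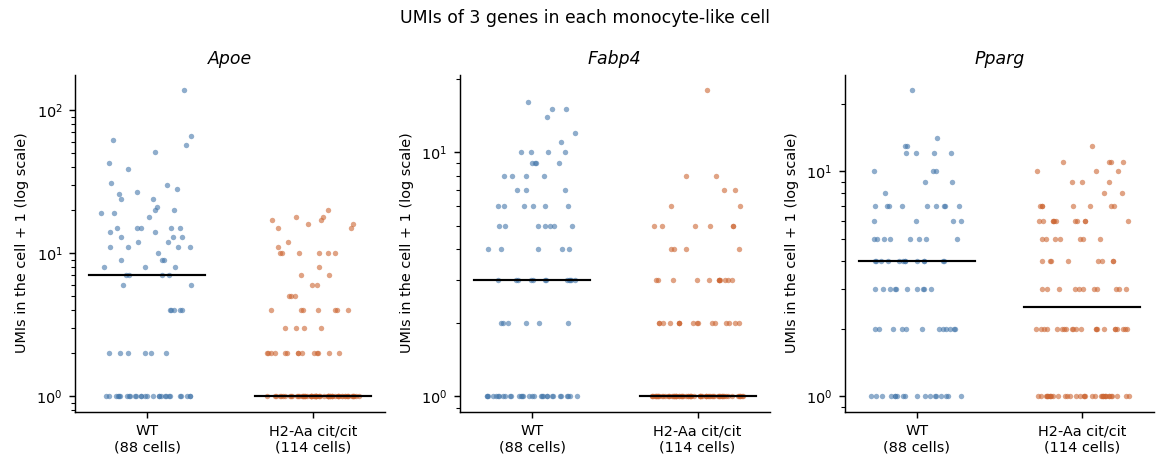
UMIs of Apoe, Fabp4 and Pparg plus 1 (log axis) in each monocyte-like cell, 88 of WT (left) beside 114 of H2-Aa cit/cit (right), with the median as a black line. Each point is a cell, spread sideways at random. The median for Apoe was 6 UMIs in WT against 0 in H2-Aa cit/cit, and both libraries held cells at 0 for all 3 genes.

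cDC1 were another class in which Apoe was 2-fold lower, once the Negr1-rich and C1q cells were left out. With every cell, 533 WT and 471 H2-Aa cit/cit UMIs gave 111 and 60.1 CPM and a log2 ratio of −0.88 (−1.07 to −0.70). Without 20 WT and 11 H2-Aa cit/cit cells of those sets, 499 and 297 UMIs gave 107 and 38.4 CPM, and the ratio was −1.47 (−1.69 to −1.26). One H2-Aa cit/cit cell alone held 80 of the 471 UMIs. The thinned share of cDC1 with an Apoe UMI was 13.3% (10.2 to 16.96) in WT against 3.99% (2.51 to 5.97) in H2-Aa cit/cit, both within the wide intervals of the NK-like shares. In the same class the 6 cDC1 markers summed to 3020 and 2337 CPM, the 4 plasma cell markers to 2.50 and 146 CPM and the 6 erythroid markers to 71.7 and 5.24 CPM. The median depth was 8979 and 14084 UMIs. The part of these in the difference was not tested.

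In cDC2, the largest class, Apoe had 2335 UMIs in WT (132 CPM) and 3443 in H2-Aa cit/cit (93.9 CPM), a log2 ratio of −0.49 (−0.57 to −0.42). Without 50 and 56 Negr1-rich or C1q cells the WT level came to 110 CPM and the H2-Aa cit/cit level to 92.8 CPM, and the ratio was −0.25 (−0.33 to −0.17). The difference was not even within the class. Cells with mainly Esam, Clec4a4 and Ffar2 UMIs had 114 CPM in WT against 115 CPM in H2-Aa cit/cit, with a ratio of 0.01 (−0.09 to 0.12). Cells with mainly Ccr2, Clec12a and Cd209a UMIs had 72.2 and 45.8 CPM, with a ratio of −0.66 (−0.88 to −0.43). The first side had 1375 WT and 2801 H2-Aa cit/cit cells and the other 388 and 1253, of 2524 and 5429 cDC2 without Negr1-rich and C1q cells. The remaining cDC2 were on neither side and were not read apart. The Apoe difference of the class is therefore not placed on the Ccr2, Clec12a and Cd209a side alone. The thresholds for these 2 sides were set after the UMIs had been seen.

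Elsewhere Apoe was at 62.5 and 65.0 CPM in proliferating DC (log2 ratio 0.06, −0.18 to 0.29) and at 62.3 and 42.8 CPM in mature DC (−0.54, −0.72 to −0.37). Without Negr1-rich and C1q cells, Apoe in mature DC was at 52.4 and 43.3 CPM (−0.28, −0.46 to −0.09). In mature DC with cDC1 genes it was at 159 and 47.3 CPM (−1.75, −2.31 to −1.24), from 288 and 34 UMIs, and without Negr1-rich and C1q cells at 105 and 51.5 CPM (−1.02, −1.61 to −0.48). In pDC-like cells it was at 114 and 66.7 CPM (−0.77, −1.23 to −0.33). Among cells with 10 Apoe UMIs or more, 143 in WT against 71 in H2-Aa cit/cit, the monocyte-like class gave 36 and 11 and cDC2 gave 37 and 30. Ungated cells gave 27 and 16. Across all classes, 25 and 12 of the 143 and 71 were also Negr1-rich or C1q cells.

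C1q cells carried Apoe at the level of WT monocyte-like cells in both genotypes. The 143 WT cells had 1133 UMIs (1563 CPM) and the 87 H2-Aa cit/cit cells 535 UMIs (1412 CPM), a log2 ratio of −0.15 (−0.30 to 0.00). C1qb, one of the genes that define these cells, stood at 1099 and 908 CPM. Of the other macrophage markers, Vcam1 was at 230.4 and 251 CPM, Slc40a1 at 123 and 206 CPM and Cd209b at 0 in both. The rest of that list is not reported here for C1q cells. The erythroid gene Hbb-bs stood at 4317 CPM in WT C1q cells against 121 CPM in those of H2-Aa cit/cit, and its part in the levels was not tested. Just outside the limit, cells with 1 or 2 C1q UMIs had Apoe at 257 CPM in the 195 such cells of WT against 88.2 CPM in the 139 of H2-Aa cit/cit. Just inside it, cells with 3 or 4 had 1034 CPM (40 cells) and 719 CPM (23 cells). Negr1-rich cells, taken as a set, were nearer the library level, with 141 CPM in 173 WT cells while the 138 of H2-Aa cit/cit were at 118 CPM. Few cells carried these levels. Of the 192 WT UMIs, found in 27 cells, 1 cell held 61. Of the 145 H2-Aa cit/cit UMIs, found in 25 cells, 1 cell held 80. The 25 WT cells that were also C1q cells held 82 of the UMIs, and the 8 such H2-Aa cit/cit cells held 92.

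Abcg1, the transporter that passes cholesterol to high-density lipoprotein, had 7096 UMIs in WT (139 CPM, 136 to 142) and 4530 in H2-Aa cit/cit (62.4 CPM, 60.5 to 64.2). The log2 ratio was −1.16 (−1.21 to −1.10) and stayed at −1.16 without Negr1-rich and C1q cells. Mature DC held 55.1% of its UMIs in WT against 28.1% in H2-Aa cit/cit, where cDC2 held 43.8%. In mature DC the level was 270.5 CPM in WT against 141 CPM in H2-Aa cit/cit (log2 ratio −0.94, −1.03 to −0.84). Cells with 10 Abcg1 UMIs or more numbered 98 in WT, of which 70 were mature DC and 25 mature DC with cDC1 genes, and 3 in H2-Aa cit/cit, all mature DC. Without Negr1-rich and C1q cells, 29.2% (27.2 to 31.4) of thinned WT mature DC and 20.8% (18.6 to 23.0) of H2-Aa cit/cit ones had an Abcg1 UMI, against 61.6% and 47.3% unthinned. The NK-like shares were 16.1% (5.45 to 33.7) and 7.41% (0.91 to 24.3), from 31 and 27 cells.

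The 6 mature DC markers (Ccr7, Fscn1, Cacnb3, Socs2, Il4i1 and Nudt17) summed to 3765 CPM in WT against 2815 CPM in H2-Aa cit/cit mature DC, so the class itself was not equal in the 2 libraries. Abcg1 was therefore also read by the number of these marker UMIs in a cell, over cDC2, mature DC and ungated cells together. From cells with 0 to cells with 40 or more, it went from 72.1 to 417 CPM in WT and from 53.9 to 192 CPM in H2-Aa cit/cit. The WT level was the higher one in all 6 bins, with log2 ratios from −0.27 (−0.42 to −0.11), at 20 to 39 UMIs, to −1.12 (−1.38 to −0.86), at 40 or more. The last bin held 437 WT cells but only 75 H2-Aa cit/cit cells, and marker UMIs also grow with a cell's depth.

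**Figure D3:**
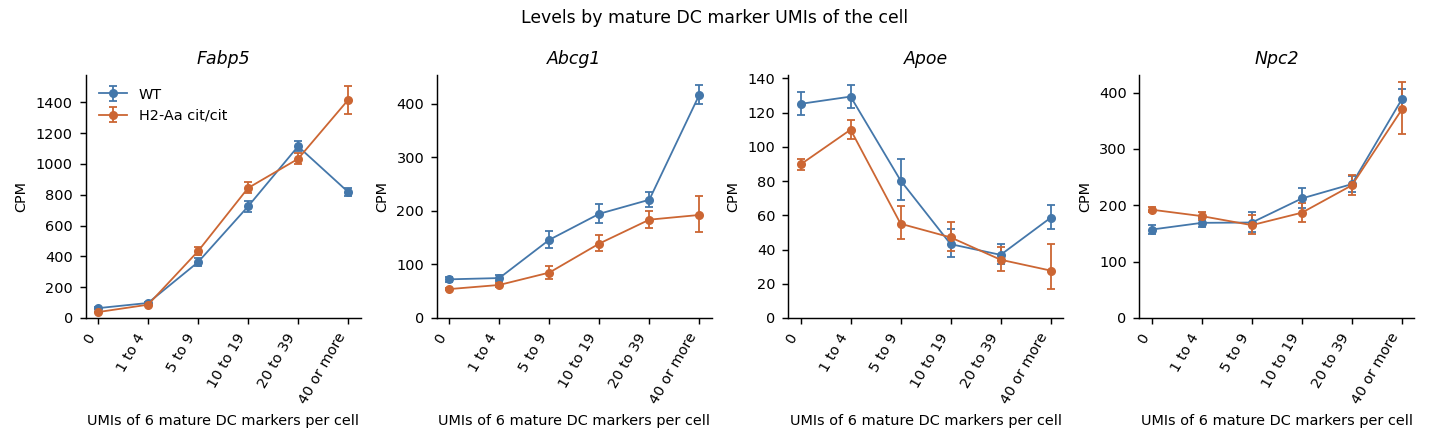
CPM of Fabp5, Abcg1, Apoe and Npc2 in cDC2, mature DC and ungated cells binned by the summed UMIs of 6 mature DC markers, for WT (blue) and H2-Aa cit/cit (orange), without Negr1-rich and C1q cells. Bars are exact Poisson 95% intervals. Abcg1 is higher in WT in all 6 bins, and Fabp5 goes up from 63.6 and 38.1 CPM at 0 UMIs to 1114 and 1033 CPM at 20 to 39.

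Abcg1 was also lower in H2-Aa cit/cit cDC1, with 358 and 181 UMIs, 74.6 and 23.1 CPM and a log2 ratio of −1.69 (−1.96 to −1.43). A larger one was found in mature DC with cDC1 genes, at 361 CPM in WT against 73.8 CPM in H2-Aa cit/cit (−2.29, −2.72 to −1.89), from 652 and 53 UMIs. In that class the mature DC markers summed to 3174 CPM in WT against 716 CPM in H2-Aa cit/cit, and there were only 30 H2-Aa cit/cit cells, so the genotype and the state of the cells cannot be told apart. cDC2 stood at 73.3 and 54.2 CPM (−0.44, −0.54 to −0.34). The interval held 0 in monocyte-like cells, with 130 and 131 CPM (0.01, −0.41 to 0.44), and in proliferating DC, with 39.5 and 38.5 CPM (−0.04, −0.33 to 0.26).

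Abca1, which loads cholesterol onto lipid-poor apolipoproteins, was scarce: 158 UMIs in WT (3.10 CPM) and 170 in H2-Aa cit/cit (2.34 CPM), with at most 4 in a cell. The log2 ratio was −0.40 (−0.73 to −0.08) and, without Negr1-rich and C1q cells, −0.23 (−0.57 to 0.11). Levels were comparatively high in NK-like cells, with 12 UMIs in WT against 4 in H2-Aa cit/cit (63.4 and 23.7 CPM), and in monocyte-like cells, with 11 and 15 UMIs (16.4 and 18.2 CPM). C1q cells had 21 and 5 UMIs (29.0 and 13.2 CPM). At this depth the interval in monocyte-like cells ran from −1.07 to 1.42 around 0.15, so a difference of 2-fold in either direction was not detectable.

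Lpl was nearly absent from the libraries. WT had 25 UMIs in 23 cells, whereas H2-Aa cit/cit had 48, also in 23 cells (0.49 and 0.661 CPM), with a log2 ratio of 0.43 (−0.30 to 1.19). Of these, 11 and 16 were in C1q cells. One H2-Aa cit/cit cell held 8 of the UMIs. In cDC1 Lpl had 1 and 0 UMIs, and in pDC-like, NK-like and neutrophil lineage cells it had 0 in both libraries.

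Fabp5, a cytoplasmic fatty acid binding protein, was the most abundant member in WT, with 14783 UMIs (290 CPM, 285 to 294), and came second to Npc2 in H2-Aa cit/cit, with 10760 (148 CPM, 145 to 151). The log2 ratio over all cells was −0.97 (−1.004 to −0.932). Over mature DC as a whole the libraries differed little: 11787 WT and 7465 H2-Aa cit/cit UMIs gave 815 and 828 CPM and a ratio of 0.02 (−0.02 to 0.07). Mature DC held 79.7% of all Fabp5 UMIs in WT against 69.4% in H2-Aa cit/cit, and they made up 25.1% of the WT cells but 12.2% of those from H2-Aa cit/cit. After thinning, and without Negr1-rich and C1q cells, 45.4% (43.1 to 47.7) of WT against 52.8% (50.1 to 55.5) of H2-Aa cit/cit mature DC had a Fabp5 UMI, against 0 of 31 and 2 of 27 NK-like cells. The unthinned shares in mature DC were 68.7% and 73.4%. Read by mature DC marker UMIs, Fabp5 went up with the markers in both libraries, to 1114 CPM in WT against 1033 CPM in H2-Aa cit/cit at 20 to 39 UMIs. The bins differed in direction. Fabp5 was higher in H2-Aa cit/cit at 5 to 9 UMIs (log2 ratio 0.26, 0.12 to 0.39) and at 10 to 19 (0.22, 0.13 to 0.31). It was lower there at 20 to 39 (−0.11, −0.18 to −0.04), at 1 to 4 (−0.18, −0.30 to −0.05) and at 0 (−0.74, −0.88 to −0.61). In the last bin it was at 819 CPM in WT against 1415 CPM in H2-Aa cit/cit (log2 ratio 0.79, 0.69 to 0.89).

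Weighting the WT class levels of Fabp5 by the UMI shares that the classes had in H2-Aa cit/cit gave 171 CPM. On the log2 scale the class shares thus made up −0.76 of the total of −0.97, and levels within classes −0.21. For Abcg1 the same arithmetic gave −0.47 and −0.69, and for Apoe 0.09 and −0.71. Fabp5 was lower in H2-Aa cit/cit outside mature DC, at 72.9 and 48.8 CPM in cDC2 (−0.58, −0.68 to −0.47) and 28.5 and 10.98 CPM in cDC1 (−1.38, −1.78 to −0.98; −0.92, −1.36 to −0.48, without Negr1-rich and C1q cells). In mature DC with cDC1 genes it was higher, at 170.0 and 281 CPM (0.73, 0.46 to 0.99), though at −0.26 when classes were set by z-scores. In monocyte-like cells it was at 80.5 and 104 CPM (0.37, −0.13 to 0.89), and at −0.75 in the z-score class.

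**Figure D4:**
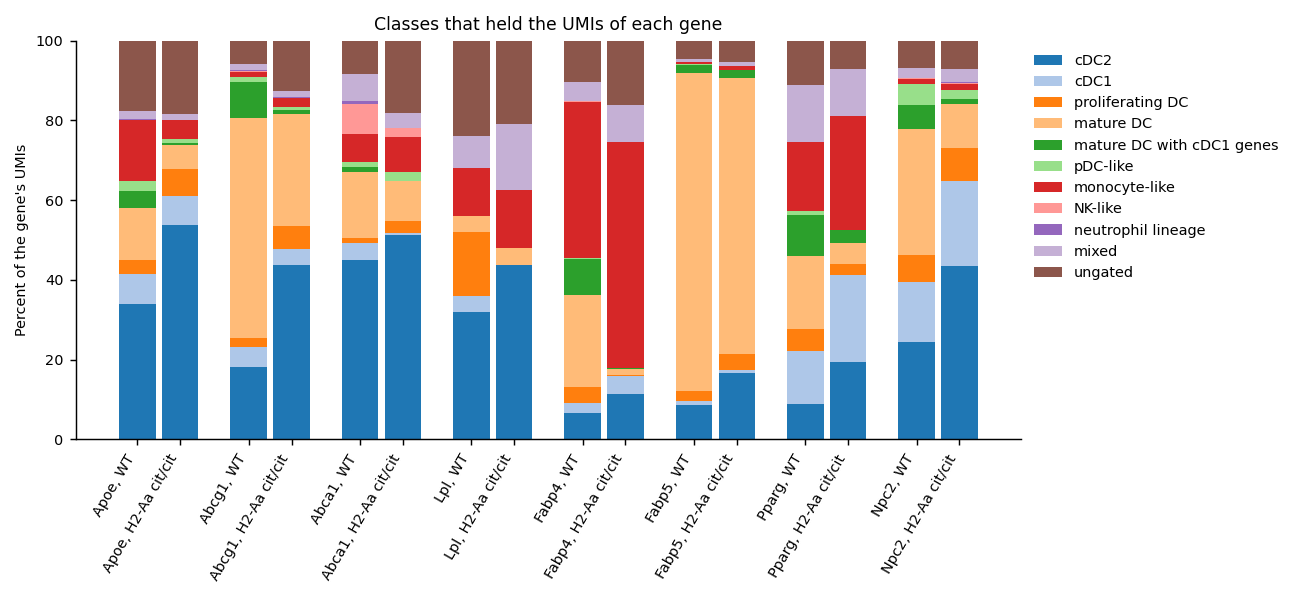
Share in percent of each gene's UMIs that each class held, for the 8 genes in the WT and H2-Aa cit/cit libraries, with every cell. Mature DC hold 79.7% and 69.4% of Fabp5 UMIs, and monocyte-like cells 39.1% and 56.6% of Fabp4 UMIs.

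Within cDC2 and without Negr1-rich and C1q cells, the Esam, Clec4a4 and Ffar2 side had Fabp5 at 71.2 CPM in WT against 56.1 CPM in H2-Aa cit/cit (−0.34, −0.48 to −0.20). The other side (Ccr2, Clec12a and Cd209a) had 54.6 against 27.0 CPM (−1.01, −1.29 to −0.74), so Fabp5, like Apoe, was further apart there. For Abcg1 the ratio was −0.43 (−0.57 to −0.28) on the Esam, Clec4a4 and Ffar2 side and −0.20 (−0.44 to 0.04) on the other, and these intervals overlapped. The cDC2 on neither side were not read apart for these genes either. C1q cells had Fabp5 at 371 against 158 CPM (−1.23, −1.66 to −0.82) and Abcg1 at 181 against 161 CPM (−0.17, −0.63 to 0.28).

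Fabp4, the fatty acid binding protein of adipocytes and macrophages, had 752 UMIs in WT (14.7 CPM) and 228 in H2-Aa cit/cit (3.14 CPM), a log2 ratio of −2.23 (−2.45 to −2.02). Without Negr1-rich and C1q cells 472 and 195 UMIs were left, and the ratio was −1.81 (−2.06 to −1.56). Monocyte-like cells held 39.1% of all Fabp4 UMIs in WT against 56.6% in H2-Aa cit/cit, at 438 CPM (389 to 491) and 156 CPM (131 to 186). The ratio in monocyte-like cells was −1.49 (−1.80 to −1.18), and −1.41 without Negr1-rich and C1q cells. Of the monocyte-like cells, 57 in WT against 45 in H2-Aa cit/cit had at least 1 UMI, with highest values of 15 and 17. After thinning, 40.9% (30.5 to 51.9) and 18.6% (11.9 to 27.0) had a UMI (64.8% and 39.5% unthinned), while no thinned NK-like cell did (0 of 33, which allows a share of up to 9.09% by the limit of 3 counts, and 0 of 27, up to 11.1%). Unthinned, 6.06% of the 33 WT NK-like cells and none of the 29 H2-Aa cit/cit ones had one.

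Negr1-rich cells held much of the remaining Fabp4 of WT. The 173 Negr1-rich WT cells held 252 UMIs (185 CPM) and the 138 H2-Aa cit/cit cells 28 (22.7 CPM), a log2 ratio of −3.02 (−3.64 to −2.46). Mature DC had 173 UMIs in WT against 3 in H2-Aa cit/cit with every cell, and 61 (21 of them in 1 cell) and 2 without Negr1-rich and C1q cells. The H2-Aa cit/cit counts are so low that the ratio without those cells, −4.23, had an interval from −7.31 to −2.31. In cDC1 the ratio went from −1.71 with every cell to 1.44 (−0.83 to 4.69) without Negr1-rich and C1q cells, on 2 and 9 UMIs. pDC-like cells had 2 and 0 UMIs and neutrophil lineage cells 0 in both.

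Pparg, the lipid-sensing nuclear receptor, changed more over all cells than any other member with the choice of cells. With every cell it had 1903 UMIs in WT (37.3 CPM) and 1082 in H2-Aa cit/cit (14.9 CPM), a log2 ratio of −1.32 (−1.43 to −1.22). Without Negr1-rich and C1q cells 812 and 906 UMIs were left (16.5 and 12.7 CPM), and the ratio was −0.37 (−0.51 to −0.24). The 173 Negr1-rich WT cells alone held 54.4% of all WT Pparg UMIs, at 758 CPM, whereas the 138 H2-Aa cit/cit cells held 12.8%, at 113 CPM. The level went up with Negr1 in WT, from 77.1 CPM in cells with 3 or 4 Negr1 UMIs to 206 CPM in cells with 5 or 6, and in H2-Aa cit/cit from 23.5 to 63.0 CPM. The 25 WT cells in both sets were at 1581 CPM and the 8 H2-Aa cit/cit cells at 671 CPM. C1q cells had Pparg at 586 CPM in WT (425 UMIs) against 211 CPM in H2-Aa cit/cit (80 UMIs), a ratio of −1.47 (−1.84 to −1.13). pDC-like cells had 20 UMIs in 2 WT cells, one of them with 16, and 0 in H2-Aa cit/cit. Of WT cells with 10 Pparg UMIs or more, 43 of 58 were Negr1-rich or C1q cells, against 3 of 11 in H2-Aa cit/cit.

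Monocyte-like cells had the highest Pparg level of the classes, 492 CPM (440.1 to 548) in WT against 376 CPM (335 to 420) in H2-Aa cit/cit, a log2 ratio of −0.39 (−0.62 to −0.16). In these gated cells it was nearer to equal than Apoe or Fabp4, but in the wider class set by z-scores the ratios were −1.68 for Pparg, −1.27 for Apoe and −2.11 for Fabp4. Among monocyte-like cells, 70 of WT against 79 of H2-Aa cit/cit had Pparg, and Apoe, Fabp4 and Pparg together in 52 of 88 and 27 of 114. None of the 3 was found in 17 and 26. In cDC1 the ratio was −0.80 (−1.06 to −0.54) with every cell and 0.20 (−0.14 to 0.55) without Negr1-rich and C1q cells. In mature DC it was −1.91 (−2.34 to −1.51) and −0.42 (−0.97 to 0.11), and in mature DC with cDC1 genes −1.18 (−1.75 to −0.65) and 0.76 (0.09 to 1.41). In the last class 1 H2-Aa cit/cit cell held 28 of the 34 UMIs, and without the top cell of each library these ratios were −3.10 and −1.11. Without all cells that had any Negr1 or C1q UMI, the mature DC ratio was 0.88. cDC2 without Negr1-rich and C1q cells were at 4.92 and 4.86 CPM (−0.02, −0.40 to 0.37). Proliferating DC had 102 and 28 UMIs with every cell (−2.66, −3.32 to −2.05) but 33 and 19 without Negr1-rich and C1q cells (−1.61, −2.51 to −0.76).

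**Figure D5:**
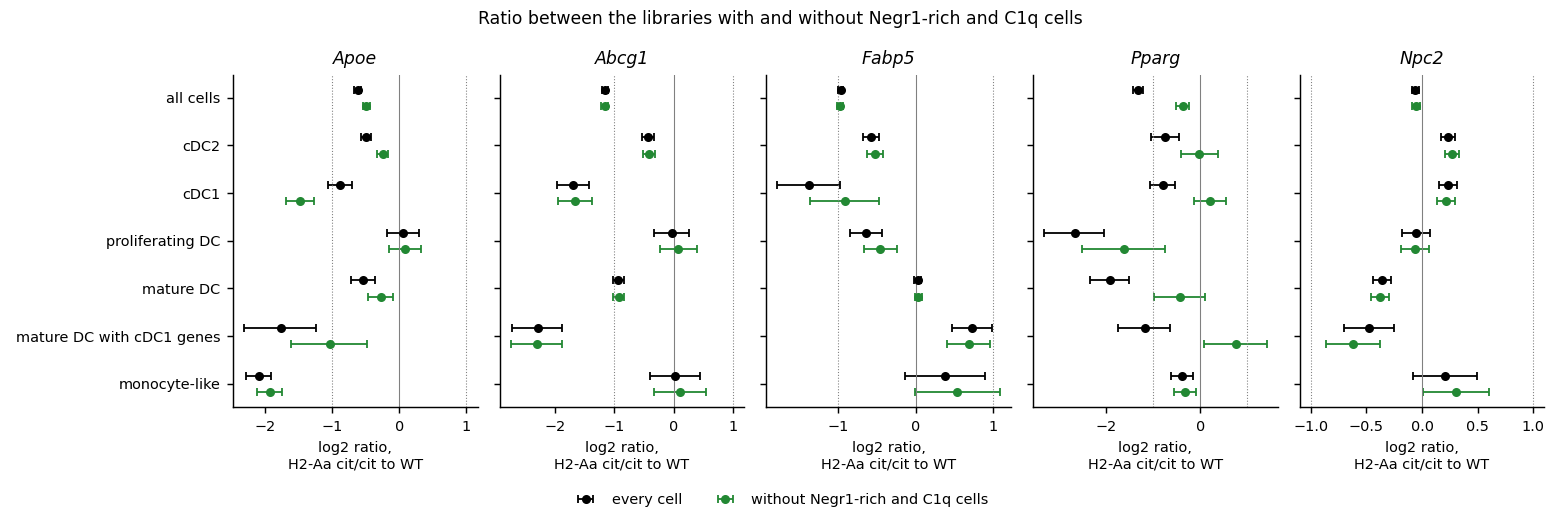
Log2 ratio (H2-Aa cit/cit over WT) of 5 genes over all cells and in 6 classes, with every cell (black) and without Negr1-rich and C1q cells (green). Bars are exact conditional binomial 95% intervals, and dotted lines mark 2-fold. The Pparg ratio moves from −1.32 to −0.37 over all cells, while Abcg1 stays at −1.16.

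Npc2, the soluble lysosomal carrier of cholesterol, was the most evenly spread member. It had 12376 UMIs in WT (243 CPM, 238 to 247) and 16922 in H2-Aa cit/cit (233 CPM, 229 to 236), a log2 ratio of −0.06 (−0.09 to −0.03). Levels were high in pDC-like cells, with 406 and 477 CPM (0.23, 0.05 to 0.41), and cDC1, with 393 and 461 CPM (0.23, 0.15 to 0.31). cDC2 were lower, with 171 and 201 CPM (0.23, 0.17 to 0.30). In these 3 classes Npc2 was slightly higher in H2-Aa cit/cit. In mature DC it was lower, with 271 and 211 CPM (−0.36, −0.44 to −0.28), and in mature DC with cDC1 genes with 396 and 285 CPM (−0.47, −0.71 to −0.25). Read by mature DC marker UMIs, Npc2 was nearer to equal in cells with 5 or more. Below that it was higher in H2-Aa cit/cit, at 0 marker UMIs (log2 ratio 0.29, 0.22 to 0.37) and at 1 to 4 (0.10, 0.01 to 0.19). The log2 ratios were −0.04 (−0.25 to 0.17) at 5 to 9 UMIs and −0.18 (−0.36 to −0.002) at 10 to 19. At 20 to 39 the ratio was −0.01 (−0.15 to 0.13), and at 40 or more −0.07 (−0.26 to 0.12). Marker UMIs also grow with a cell's depth, and the part of marker level in the class ratio of Npc2 was not tested. In proliferating DC the interval held 0, with 219 and 210.0 CPM (−0.06, −0.18 to 0.07). Within cDC2, the Ccr2, Clec12a and Cd209a side had 335 and 323 CPM and the Esam, Clec4a4 and Ffar2 side 115 and 143 CPM. NK-like cells were at 169 and 166 CPM. Neutrophil lineage cells had 7 Npc2 UMIs in 3 of 11 WT cells and 54 in 6 of 15 H2-Aa cit/cit cells. Each class thus held Npc2 UMIs, and whether those of the small classes came from the cells themselves was not tested.

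Counts of members past 2-fold were read against all genes that reached 50 CPM in one of the libraries. Over all cells, 4 members reached that level and 1, Abcg1, was 2-fold or more lower in H2-Aa cit/cit, beside 3.21% of 3953 genes with every cell and 3.22% without Negr1-rich and C1q cells. In cDC2 none of 4 was, beside 0.527% and 0.526% of genes. In cDC1 it was 1 of 4 with every cell, beside 2.31%, and 2 of 3 (Apoe and Abcg1) without those cells, beside 2.16%. In mature DC none of 4 was, beside 1.69% and 1.72%, and in monocyte-like cells 2 of 6 (Apoe and Fabp4), beside 1.46% and 1.33%. In mature DC with cDC1 genes the counts were 3 of 5 and 2 of 5, but there 14.3% and 14.5% of all genes were past 2-fold too. No member that reached 50 CPM was 2-fold or more higher in any of these classes. The members were chosen with these ratios known, so nothing is read from the counts.

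Another 5 lists of lipid genes were compared without Negr1-rich and C1q cells, among genes with at least 50 UMIs over both libraries. Over all cells, 6.11% of 14440 genes were 2-fold or more lower in H2-Aa cit/cit and 1.52% higher, and the median log2 ratio of all was −0.02. Among cholesterol efflux genes and LXR targets, 2 of 13 were 2-fold lower and none higher, and the median was −0.30. These were Scd1, a fatty acid desaturase, with 51 and 18 UMIs (−2.03, −2.90 to −1.23), and Apoc2, the activator of lipoprotein lipase, with 231 and 144 (−1.21, −1.52 to −0.91). At the other end were Nceh1 (0.14) and Nr1h2, which encodes LXR-beta (0.20). Of 10 genes for lipoprotein and fatty acid uptake none was past 2-fold, with a median of −0.16. Cd36, a scavenger receptor, was at the lower end (−0.58, −0.66 to −0.50), and Lmf1 (0.34) and Slc27a4 (0.35) were highest.

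Of 12 lysosomal lipid genes none was past 2-fold and the median was 0.11. They ran from Galc (−0.85, −1.01 to −0.69) and Scarb2 (−0.07) to Lipa, the lysosomal acid lipase (0.40, 0.34 to 0.46). Of 13 genes for lipid droplets and triglyceride turnover, 1 was 2-fold lower and the median was 0.00. It was Mgll, monoacylglycerol lipase, with 491 and 87 UMIs (−3.03, −3.37 to −2.70), and G0s2 came next (−0.56), while Hilpda (0.48) and Dgat2 (0.50) were highest. Of 10 PPAR targets and fatty acid oxidation genes none was past 2-fold and the median was 0.09. Etfa (−0.12) was at the lower end, and Cpt1a (0.30) and Acadm (0.36) were highest.

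In cDC2 alone 1.98% of genes were 2-fold lower and 1.02% higher, and no gene of the 5 lists that could be compared was either. In mature DC, beside 2.25% lower and 2.62% higher, Cd36 (130 and 16 UMIs, −2.32), Galc (231 and 56 UMIs, −1.34) and Mgll (242 and 23 UMIs, −2.69) were lower and Pltp, a phospholipid transfer protein, was higher (77 and 97 UMIs, 1.04). The medians of the 5 lists in mature DC ran from 0.03 to 0.26, beside 0.08 for all genes.

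For the likeness of patterns, log2(CPM + 10) was correlated across 16 sums, the 2 libraries of each of 8 classes, among 12180 genes. The sums share libraries and differ in depth, so r is a description only. The genes most like Apoe were Abcd2 (Pearson's r 0.95), Scnn1a (0.94) and Ddx3x (0.94), and those most like Abcg1 were Idh1 (0.93), Spic (0.93) and Ncoa6 (0.92). Fabp4 was followed by Tmem26 (0.96), Nr1h3 (0.96) and Itgb5 (0.95), and Pparg by Zfyve9 (0.95), 3110021N24Rik (0.94) and Tmem26 (0.93). For Fabp5 these were Gm26756, Ttyh3 and Mir99ahg (each 0.94), for Npc2 Mpeg1 (0.91), Coa5 (0.90) and Lrrc1 (0.88), and for Abca1 Cast (0.98), Tspan32 (0.97) and Kbtbd2 (0.96). Between members, r was highest for Apoe with Fabp4 (0.89), Fabp4 with Pparg (0.87), Apoe with Pparg (0.82) and Abcg1 with Fabp5 (0.73). For Apoe with Fabp5 it was 0.03. Fabp4 was at 438 and 156 CPM in monocyte-like cells but at most at 37.7 CPM in the other gated classes. Its r values therefore rest largely on the monocyte-like sums, and r without that class was not computed. Those of Abca1 rest on few UMIs. Its highest levels among these sums came from 12 and 4 UMIs in NK-like cells and 11 and 15 in monocyte-like cells.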

How the data were processed

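Splenic CD11c+ cells were profiled by 10X Genomics 3′ sequencing, with 1 library for WT and 1 for H2-Aa cit/cit. The authors deposited raw UMI counts for each cell and gene. Cell Ranger 5.0.1 aligned the reads to GRCm38 (mm10), and the study used Seurat for later steps. The annotation and the treatment of intronic reads are not given in the sources used here.

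No deposited cell was removed: neither a mitochondrial limit nor a doublet caller was applied. Cells were gated by summed UMIs of marker lists: 5 or more for cDC1, mature, proliferating and NK-like cells, 3 for cDC2, 10 for pDC-like and neutrophil lineage cells, and 8 with 2 Ace UMIs for monocyte-like cells. A cDC list had to be 2 times the other. Cells past more than 1 gate of other types, or with neither cDC list dominant, were called mixed. These thresholds were set after marker UMIs had been seen, and the members and gene lists were chosen with earlier results of these data known. Named genes were the members, the 3 genes most like each member with at least 200 UMIs, and the 2 highest and 2 lowest ratios of each list among genes with at least 50 UMIs. Some genes this rule selects are not reported here. List genes past 2-fold in mature DC were named after their values were seen.

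UMIs were summed per library and class and scaled to CPM. Intervals (95%) are exact Poisson for CPM, exact conditional binomial for ratios and Clopper-Pearson for shares. Shares used cells thinned to 1500 UMIs, leaving out 734 WT and 958 H2-Aa cit/cit shallower cells. A count of 0 was bounded at 3 UMIs per library and class. The ratio and its interval were tested on simulated Poisson counts summed per library. Such counts follow the model of the interval and leave out the clumping of UMIs in single cells. Python 3.11.15, numpy 2.4.6, scipy 1.17.1, pandas 2.3.3, matplotlib 3.10.9, blastn 2.17.0 and GENCODE vM21 were used. Alternatives covered scaling, the mean per cell, the top cell, mitochondrial UMIs, gates, Negr1 and C1q cells, thinning and the CPM minimum. Leaving out shared barcodes, and the top cells together with Negr1-rich and C1q cells, was added after seeing the data.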

Additional observations from a re-analysis of the deposited data

How the results depend on the processing

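Without the 31 shared barcodes, and without cells over 10% mitochondrial UMIs, all 47 ratios of members with at least 50 UMIs in a class stayed within their counting intervals. The fewest did so by z-score classes (27 of 46) and by the mean of counts per 10000 (30 of 47). Without Negr1-rich and C1q cells 34 of 47 did. The number of members 2-fold or more lower over all cells (1) was 0 by the mean of counts per 10000 and 3 at a minimum of 10 CPM. In cDC1 (1) it was 2 by that mean, without the top cell of each library, without Negr1-rich and C1q cells, without both, without cells with 1 or more Negr1 or C1q UMIs and at 10 CPM, and 3 by the highest marker z-score. In mature DC (0) it was 1 after median ratio scaling and 2 at 10 CPM, and in mature DC with cDC1 genes (3) it was 1 without cells with any Negr1 or C1q UMI. At 10 CPM proliferating DC and pDC-like cells gave 1 each (0). The Apoe log2 ratio over all cells was −0.85 by the mean of counts per 10000, −0.49 without Negr1-rich and C1q cells and −0.47 either without those and the top cell of each library or without cells with any such UMI. In monocyte-like cells it was −1.76 by that mean, −1.81 without Negr1-rich and C1q cells and the top cell of each library, and −1.27 by z-score classes, and Abcg1 in mature DC was at −0.68 and −0.79. Called differences changed sign for Pparg in mature DC, 0.88 without cells with any Negr1 or C1q UMI, for Pparg in mature DC with cDC1 genes, 0.76 without Negr1-rich and C1q cells (−1.11 once the top cell of each library was left out too) and 5.30 by z-score classes, which left 5 H2-Aa cit/cit cells, and for Fabp4 in that class, 0.82 by z-score classes. The sign was kept in 39 of 46 ratios by z-score classes, in 43 of 46 without Negr1-rich and C1q cells and the top cell of each library, and in 42 of 46 without cells with any such UMI. The causes were not tested. No paired analysis was possible because each genotype has 1 library. Depth limits Lpl and Abca1, which had at most 48 and 170 UMIs in a library.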
